A study of Xenopus laevis with 12 samples.

Results

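Potassium channel genes were followed by RNA-seq in whole *Xenopus laevis* embryos raised with or without the teratogen thioridazine, in small or large groups. The genes were the rows of the RSEM count table whose identifier starts with kcn and a further letter, and that reached at least 1.8 CPM (counts scaled to the size of the library) in 3 or more of 12 libraries. Of 120 such rows, 36 met this rule, against 21731 of all 42638 rows of the table. The suffixes .L and .S mark the long and short homeologs, the gene copies left by the genome duplication of this frog.

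All embryos were wild type and were collected at Nieuwkoop-Faber (NF) stage 25, a tailbud stage. The 4 groups were untreated embryos in small groups, untreated embryos in large groups, thioridazine-treated embryos in small groups and thioridazine-treated embryos in large groups, with 3 libraries each. Thioridazine was given at 90 µM from NF stage 12.5, at 18 °C during treatment and with rearing at 14 °C, and each library was made from 15 pooled embryos. The study asked whether embryos that meet a teratogen in a larger group respond differently in their transcription. Each library averages all tissues of 15 embryos, so fewer cells of a type and less RNA per cell cannot be told apart. By the labels, sampling was repeated 3 times per treatment, and the study describes its experiments in general as independently repeated. Neither ties the 3 libraries of a group to separate cultures, so p-values measure the spread between these libraries, which may in part be technical.

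Potassium channels let potassium ions leave or enter the cell and so hold the resting membrane voltage or bring it back after a depolarization. Voltage-gated (Kv) channels open on depolarization, inward rectifiers (the kcnj genes) and two-pore channels (the kcnk genes) set the resting voltage, and calcium- or sodium-activated channels open when those ions rise in the cell. Accessory subunits change how a pore subunit opens or where it sits. In frog embryos, membrane voltage differs between tissues, and changing it experimentally alters patterning. Thioridazine, an antipsychotic that antagonizes dopamine receptors, also blocks the human channel encoded by KCNH2. kcnh2 was not analysed here, and neither were kcnj11, abcc8 and abcc9, which encode a pore subunit of ATP-sensitive potassium channels and their sulfonylurea receptors.

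Library totals ran from 3497198 to 7822395 expected counts, with a median of 6018883. The 4 shallowest libraries, with 3497198 to 3701983, were untreated small 2 and 3, thioridazine small 3 and thioridazine large 3, so 3 of them carry the replicate number 3. Marker genes of muscle, neurons, pronephros, epidermis and notochord were all detected in the whole-embryo libraries. Same-numbered libraries deviated from their group means together, with correlations over genes of 0.280 to 0.773 in 18 pairs. What the replicate number stands for is not given in the labels.

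The channel families differed in how many of their rows passed the minimum. Of the kcn rows, 30% passed, against 51.0% of all rows. All 5 rows of the ether-a-go-go family (kcnh3.L, kcnh4.L, kcnh4.S, kcnh5.L and kcnh5.S) and 5 of 8 rows of the Kv7 family (the kcnq genes) passed. Among calcium- or sodium-activated channels 7 of 14 passed, among inward rectifiers 7 of 24, and among two-pore channels 5 of 18. Only 3 of 21 rows for Kv1 to Kv4 pore subunits (kcna1.L, kcna4.S and kcnb2.S), 3 of 18 rows for accessory subunits (kcnab2.L, kcne1.L and kcne5.L) and 0 of 11 rows for silent Kv subunits, which form no channel on their own, passed. The last of the 36 was kcnrg.L, which carries the name of a regulator of Kv assembly. Of the 84 rows below the minimum, 6 had 0 counts in the 12 libraries together. kcnj8.L and kcnj8.S, for Kir6.1, a pore subunit of ATP-sensitive channels, were below it, with 13 and 52 counts over 12 libraries and a highest value of 1.38 and 1.66 CPM.

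The minimum sat close to several channels. Just inside it were kcnn4.L, kcnt1.L, kcna1.L and kcnb2.S, whose third-highest library was at 1.92, 1.94, 2.00 and 2.03 CPM. Just outside were kcna2.L at 1.75, kcnj10.S at 1.55 and kcnk10.L at 1.49 CPM. Of the 36 genes, 19 were at or over 1.8 CPM in all 12 libraries, and 8 had at least 1 library at 0. kcnq3.L and kcnj3.S passed through the libraries numbered 1 alone.

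**Figure D1:**
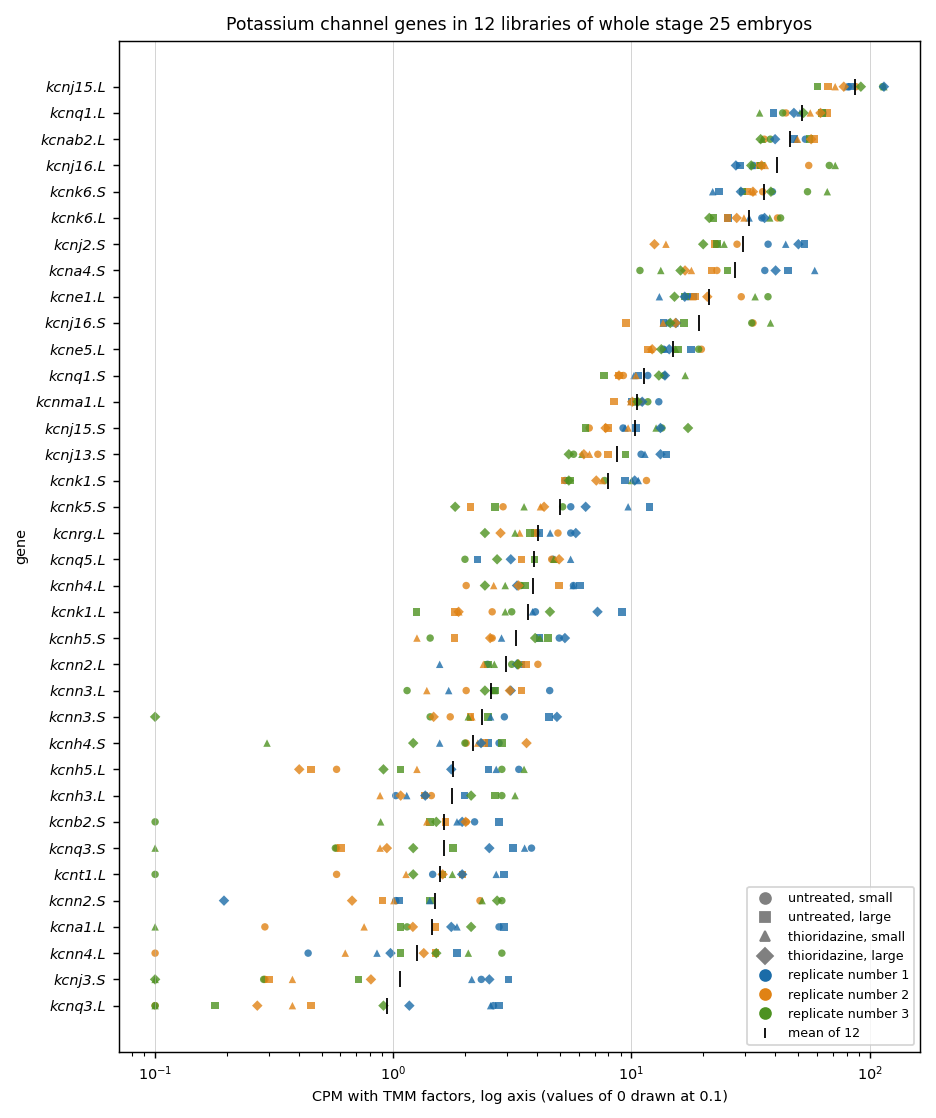
Expression of the 36 potassium channel genes in 12 libraries. Each point is a library, in CPM with TMM factors on a log axis with values of 0 drawn at 0.1. Marker shape gives the group, color the replicate number, and the vertical tick the mean of 12 libraries. kcnj15.L is at the top with a mean of 87.1 CPM, and in several genes, kcna4.S among them, the libraries numbered 1 lie to the right of the others.

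Inward rectifiers held 4 of the 10 channel genes with the most reads. CPM is not divided by gene length, so the order of genes is one of read number and not of transcript number. kcnj15.L, for the inward rectifier Kir4.2, averaged 87.1 CPM. It was at 81.5, 87.6 and 113 CPM in untreated small groups, 84.2, 67.0 and 60.5 in untreated large groups, 80.3, 71.7 and 115 in thioridazine small groups, and 115, 77.9 and 91.8 in thioridazine large groups. All 4 groups of kcnj15.L overlapped, and its highest library was 1.90 times its lowest. kcnj16.L and kcnj16.S, for Kir5.1, which pairs with Kir4 subunits in epithelia, averaged 40.7 and 19.2 CPM. kcnj2.S, for Kir2.1, a strong rectifier of muscle and heart, averaged 29.3 CPM and spanned 12.5 to 53.4 CPM.

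A pore subunit and a partner subunit were both among the genes with the most reads. kcnq1.L, for Kv7.1, averaged 52.1 CPM and kcne1.L, for the accessory subunit that slows the opening of Kv7.1, averaged 21.2 CPM. kcnq1.L was at 63.8, 44.5 and 43.1 CPM in untreated small groups, 39.5, 66.7 and 63.0 in untreated large groups, 51.0, 56.3 and 34.5 in thioridazine small groups, and 48.1, 62.2 and 52.7 in thioridazine large groups. These groups overlapped throughout. kcne1.L ran from 13.1 to 37.4 CPM, with its 3 highest values, 37.4, 33.0 and 28.9 CPM, in untreated small 3, thioridazine small 3 and untreated small 2.

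kcnab2.L, for a cytoplasmic subunit that binds Kv1 channels, averaged 46.4 CPM, and kcna4.S, for the rapidly inactivating channel Kv1.4, averaged 27.1 CPM. The two-pore channels kcnk6.S and kcnk6.L, for TWIK-2, averaged 36.1 and 31.3 CPM. The steadiest of the 36 genes was kcnma1.L, for the large-conductance calcium-activated channel, whose 12 libraries lay between 8.43 and 13.0 CPM. The other members had means from 0.94 CPM for kcnq3.L to 14.9 CPM for kcne5.L.

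Both homeologs of 10 channels passed the minimum. The share of the .L copy in their summed counts was largest for kcnj15, at 89.4% (84.2% to 92.9% over libraries, SD 2.04, n = 12), and for kcnq1, at 83.2% (67.2% to 89.1%). Their .S copies held 670 and 737 expected counts over all libraries. The smallest .L share was that of kcnk1, a TWIK-1 channel, at 32.2% (18.4% to 49.3%, SD 11.4, n = 12), followed by kcnh5 at 34.8% and kcnq3 at 37.8%. Over all libraries together, kcnk6 and kcnn3, a small-conductance calcium-activated channel, were split almost evenly, at 47.5% and 51.1%. Single libraries ran from 35.7% to 58.7% for kcnk6 and from 37.0% to 100% for kcnn3. The kcnk1 share was 40.5% in the libraries numbered 1, 21.0% in those numbered 2 and 28.1% in those numbered 3. RSEM divides reads that match both copies, so these shares are estimates. Of the values of the 36 genes, 38.2% were not whole numbers. The value was 25.7% over all 42638 rows of the table. Those include the rows below the minimum, so these percentages are not of like sets.

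**Figure D2:**
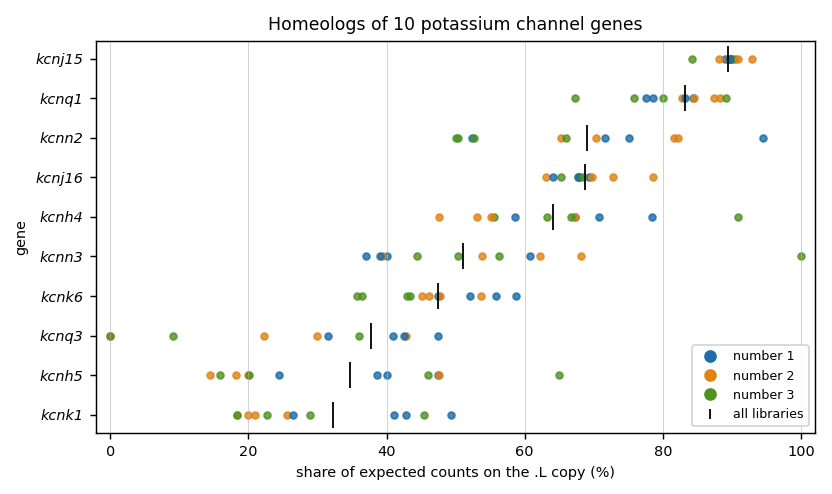
Share of summed expected counts on the .L copy for the 10 channels with both homeologs past the minimum. Each point is a library, colored by replicate number, and the vertical tick is the share over all 12 libraries. kcnj15 (89.4%) lies at the right and kcnk1 (32.2%) at the left, and the points spread most where counts are low.

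Thioridazine was compared with no treatment across both group sizes. None of the 36 genes changed by edgeR's quasi-likelihood test with Benjamini-Hochberg adjustment over all genes, where 0.0874% of all genes did. At an unadjusted p under 0.05 there were 0 of 36, and no other tool that was run called a channel. The median log2 fold change of the channels was -0.11 and 8 of 36 were above 0, where the median of all genes tested was -0.01 and 47.5% were above 0. Tissue markers leaned too. Above 0 were 1 of 14 tested rows for neurons, 0 of 11 for neural progenitors, 3 of 19 for skeletal muscle and 1 of 6 for notochord. For pronephros it was 6 of 8, for ionocytes 6 of 7, for multiciliated cells 6 of 9, for heart 5 of 5 and for epidermis 6 of 7. The part of these tissues in the channel values was not tested. With the replicate number as a block, 0 of 36 were called and 0.433% of all genes were. The 6 thioridazine and 6 untreated libraries overlapped for every channel, with no overlap in 0 of 36 against 0.262% of all genes.

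The 5 ether-a-go-go family genes, relatives of the channel that thioridazine blocks, had log2 fold changes between -0.35 and -0.03, and none was above 0. Above 0 were 0 of 3 accessory subunits, 1 of 7 calcium- or sodium-activated channels, 2 of 7 inward rectifiers and 1 of 3 Kv1 to Kv4 pore subunits. For Kv7 and for two-pore channels it was 2 of 5 each. kcnh4.L was at 5.71, 2.02 and 3.43 CPM in untreated small groups, 6.09, 4.97 and 3.57 in untreated large groups, 5.7, 2.64 and 2.95 in thioridazine small groups, and 3.31, 3.36 and 2.43 in thioridazine large groups. It was lower with thioridazine in 5 of 6 same-numbered pairs, and the groups overlapped. Its log2 fold change was -0.34 (SE 0.31), with an adjusted p of 1.00 by edgeR's quasi-likelihood test. The values were -0.35 (SE 0.39) for kcnh4.S and -0.25 (SE 0.44) for kcnh3.L. Single libraries moved them: with each library left out in turn, kcnh4.L ran from -0.57 to -0.098 (highest without untreated small 1), kcnh4.S from -0.60 to -0.16 (without thioridazine small 3) and kcnh3.L from -0.60 to -0.0010 (without untreated small 3). For kcnh5.L and kcnh5.S, relatives of the fruit fly ether-a-go-go channel, they were -0.19 (SE 0.55) and -0.03 (SE 0.39), and both turned above 0 without the libraries numbered 1, at 0.0027 and 0.14. In large groups alone, the thioridazine libraries of kcnh4.L lay below all 3 untreated ones, with a log2 fold change of -0.67 (SE 0.43). It was the only 1 of 36 channels whose groups did not overlap there (2.78%), against 6.83% of all genes.

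The other channels with the smallest p in each direction also stayed within the spread of the libraries, which includes differences between replicate numbers. With the replicate block, 0 of 36 channels had an unadjusted p under 0.05 by edgeR's test, against 4.97% of all genes. kcne5.L, for an accessory subunit of Kv7.1, averaged 16.3 ± 3.16 CPM (SD, n = 6) untreated and 13.5 ± 1.27 CPM (SD, n = 6) with thioridazine, a log2 fold change of -0.26 (SE 0.16). kcnj15.S was at 9.22, 6.65 and 13.4 CPM in untreated small groups and 10.5, 7.98 and 6.42 in untreated large groups, against 9.40, 9.68 and 12.7 and 13.2, 7.79 and 17.3 CPM with thioridazine. The ranges overlapped, and the log2 fold change was 0.35 (SE 0.24). kcnq5.L, a Kv7 channel of the M current in mammals, was at 0.30 (SE 0.27), kcnq1.S at 0.24 (SE 0.19) and kcnn2.L, a small-conductance calcium-activated channel, at -0.24 (SE 0.25).

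Within small groups, 0 of 36 channels were called, against 0.0092% of all genes (0.179% with the replicate block), and kcnt1.L had the largest log2 fold change among those with the smallest p, at 1.25 (SE 0.73). That gene, for a sodium-activated channel, rests on few reads: 9.76, 2 and 0 expected counts in untreated and 18.9, 9 and 6 in thioridazine libraries. The groups did not overlap for 2 of 36 channels (5.56%), kcnq5.L higher and kcnma1.L lower with thioridazine, against 3.64% of all genes. Within large groups, 0 of 36 were called, against 0.0092% of all genes (0.258% with the block). kcnj15.L was higher in 3 of 3 pairs there, with a log2 fold change of 0.43 (SE 0.23), and kcnj15.S was at 0.60 (SE 0.33). kcnab2.L was at -0.30 (SE 0.23) in large groups and lower in 3 of 3 pairs.

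**Figure D3:**
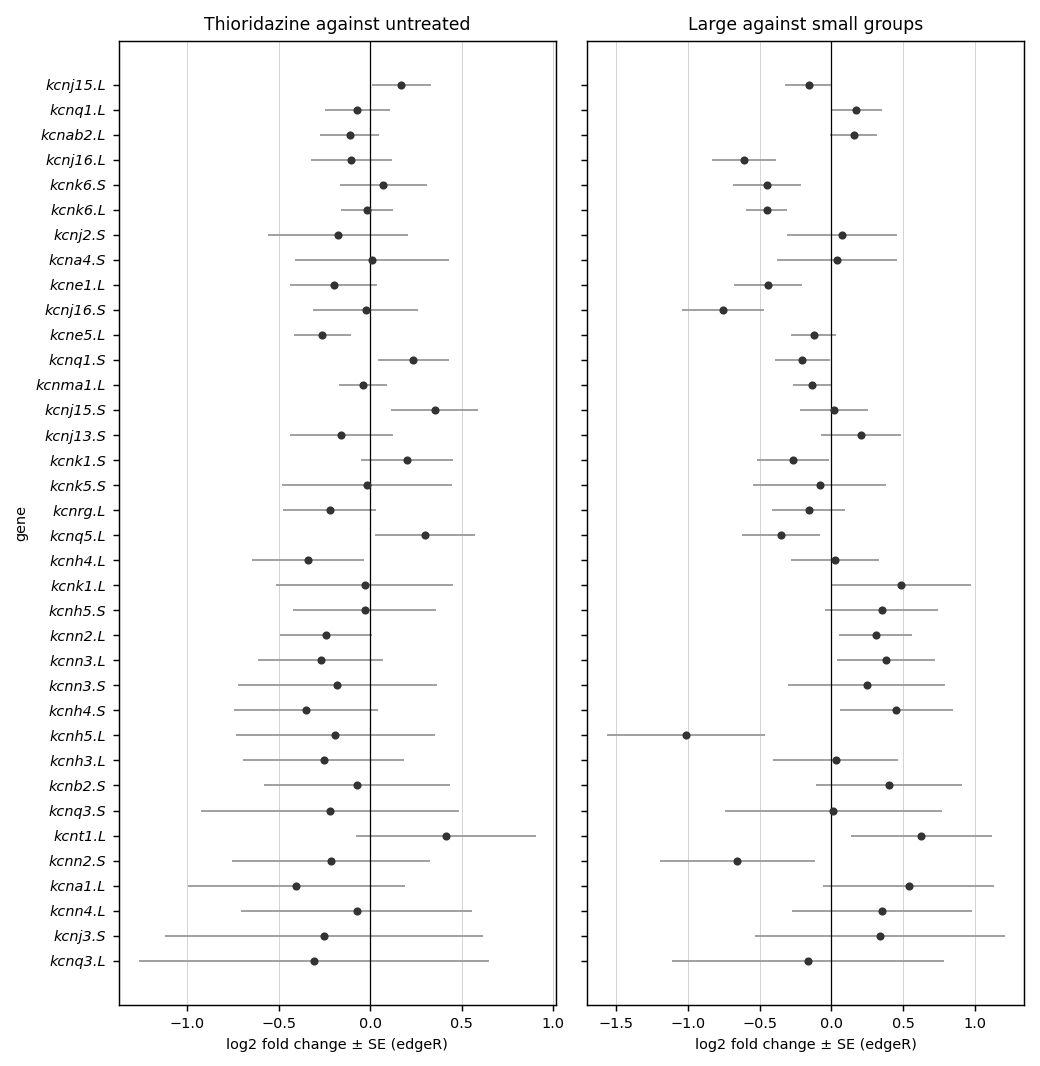
log2 fold changes of the 36 channel genes, thioridazine against untreated (left) and large against small groups (right), each averaged over the other factor. Points are edgeR estimates, bars are ± 1 SE, and genes are ordered by mean CPM. On the left the estimates lie between -0.41 and 0.41, and on the right kcnj16.S (-0.76), kcnj16.L (-0.61) and kcnk6.L (-0.45) lie left of 0 by more than 2 SE.

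Large groups were compared with small groups across both treatments. By edgeR's quasi-likelihood test 0 of 36 channels passed the adjusted threshold, as did 0% of all genes. At an unadjusted p under 0.05 there were 3 of 36 channels (8.33%), against 1.35% of all genes: kcnk6.L, kcnj16.L and kcnj16.S, each with a lower estimate in large groups. With the replicate block, 0 of 36 passed the adjusted threshold and 5 of 36 (13.9%) had an unadjusted p under 0.05, against 5.16% of all genes, now with kcnh5.L and kcnk6.S. The kcnj16 and kcnk6 genes are homeolog pairs between which RSEM divides shared reads. The genes of a pair are thus not independent, and these counts rest on fewer channels than genes. The libraries of the 2 group sizes did not overlap for 0 of 36 channels, against 0.0506% of all genes. DESeq2, limma and the other settings called 0 channels, apart from 1 that left out the libraries numbered 1.

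kcnk6.L, for the two-pore channel TWIK-2, was at 35.3, 41.0 and 42.3 CPM in untreated small groups and 25.4, 25.3 and 22.1 CPM in untreated large groups. The 3 untreated large libraries lay below all 3 untreated small ones. In thioridazine embryos the values were 31.2, 29.7 and 38.1 CPM in small and 36.2, 27.7 and 21.2 CPM in large groups, and these overlapped. Its log2 fold change was -0.45 (SE 0.14) over both treatments and -0.70 (SE 0.20) in untreated embryos, both with an adjusted p of 1.00 by edgeR. With the replicate block, the smallest adjusted p of any channel by edgeR's test was 0.843 over both treatments and 0.435 in untreated embryos. Leaving out the 4 shallowest libraries leaves 1 untreated small library against 3 large ones. The log2 fold change of kcnk6.L in untreated embryos was then -0.53, and -0.40 with the replicate block. kcnk6.S, its homeolog, was at 39.1, 35.5 and 54.8 CPM in untreated small and 23.3, 30.7 and 29.3 CPM in untreated large groups, again without overlap. In thioridazine embryos kcnk6.S was at 21.9, 32.4 and 66.4 CPM in small and 28.8, 32.4 and 38.5 CPM in large groups, and these overlapped.

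kcnj16.L was at 32.5, 55.5 and 67.7 CPM in untreated small groups and 28.6, 34.5 and 35.0 in untreated large groups, and at 32.2, 36.5 and 71.7 in thioridazine small groups and 27.4, 35.2 and 31.8 in thioridazine large groups. It was lower in large groups in 6 of 6 same-numbered pairs, while the groups overlapped. The 3 high libraries, untreated small 2 and 3 and thioridazine small 3, are 3 of the 4 shallowest ones. Its log2 fold change was -0.61 (SE 0.22) over both treatments. Without those 4 libraries it was -0.06, and -0.16 with the replicate block. Untreated small groups then keep only their library numbered 1, the number at which kcnj16.L was lowest. kcnj16.S followed the same libraries, at 14.3, 32.4 and 32.0 CPM in untreated small, 13.6, 9.48 and 16.6 in untreated large, 15.2, 13.6 and 38.4 in thioridazine small and 15.4, 15.3 and 14.6 CPM in thioridazine large groups. Its log2 fold change of -0.76 (SE 0.29) was -0.0096 without the 4 libraries and -0.05 with the block added. The part of depth in these values was not tested.

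Kir5.1 and Kir4.2 are known from the kidney of mammals, and markers of the pronephros, the embryonic kidney, were read in the same libraries. The summed level of 9 rows for pronephros markers was 172 to 234 CPM in untreated small groups and 94.7 to 176 CPM in untreated large groups. With thioridazine the sums were 122 to 233 CPM in small and 136 to 187 CPM in large groups. The sums of small and large groups overlapped in both treatments, and no marker row of that list was at 0. The marker slc12a1.L did not overlap in untreated embryos. It was at 38.6, 49.4 and 41.7 CPM in small and 20.1, 19.1 and 29.1 CPM in large groups. With thioridazine its groups overlapped. In untreated embryos, 4 of the 8 rows tested had a log2 fold change above 0. An unadjusted p under 0.05 by edgeR's test was found for 2 of the 8, against 1.76% of all genes, and none passed the adjusted threshold. Markers of other tissues were compared between untreated large and small groups as well. Above 0 were 11 of 11 tested rows for neural progenitors, 11 of 14 for neurons, 13 of 19 for skeletal muscle and 7 of 9 for multiciliated cells. For heart it was 0 of 5, for ionocytes 3 of 7, for epidermis 4 of 7 and for notochord 3 of 6. The part of these tissues in the values of kcnk6 and kcnj16 was not tested.

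**Figure D4:**
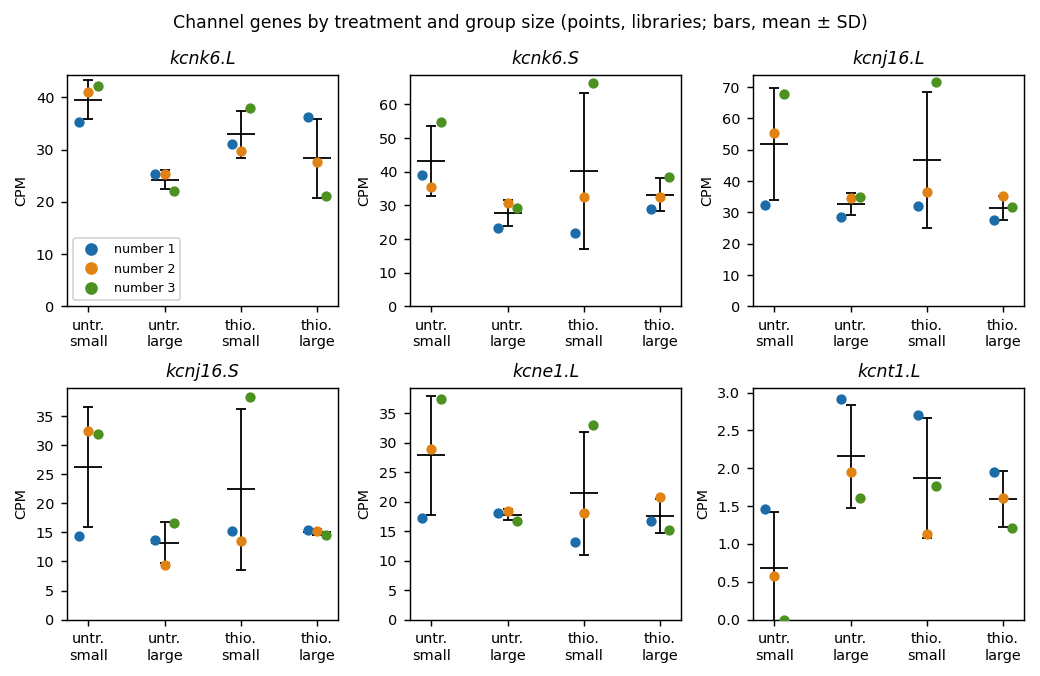
CPM of 6 channel genes by treatment and group size. Points are libraries, colored by replicate number, and bars are mean ± SD of 3 libraries. kcnk6.L lies lower in untreated large (22.1 to 25.4 CPM) than in untreated small groups (35.3 to 42.3 CPM), and kcnj16.L, kcnj16.S and kcne1.L are high in untreated small 2 and 3 and in thioridazine small 3.

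In untreated embryos alone, the groups did not overlap for 4 of 36 channels (11.1%), against 5.22% of all genes: kcnk6.L, kcnk6.S and kcnma1.L were lower and kcnt1.L was higher in large groups. The kcnk6 genes are a homeolog pair with shared reads, so this count rests on fewer channels than genes. kcnt1.L was at 1.46, 0.578 and 0 CPM in small and 2.91, 1.96 and 1.61 CPM in large groups, where a library at 0 allows up to 0.857 CPM (3 counts). It reached 1.8 CPM in 4 libraries, 2 of them untreated large and 0 untreated small. Without the untreated large libraries kcnt1.L would not have met the minimum, so its place among the 4 was partly built into the selection. The log2 fold change of kcnt1.L was 1.47 (SE 0.72), and 0.57 without the 4 shallowest libraries (1.04 with the replicate block), which again leaves 1 untreated small library. kcnma1.L was at 13.0, 11 and 11.7 CPM in small and 10.1, 8.43 and 10.3 CPM in large groups. In thioridazine embryos the groups did not overlap for 1 of 36 channels (2.78%), against 3.76% of all genes. That channel was kcnn2.L, at 1.57, 2.39 and 2.66 CPM in small and 3.31, 3.36 and 3.33 CPM in large groups. By edgeR's quasi-likelihood test, 0 of 36 channels and 0% of all genes were called within either treatment.

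After the libraries numbered 1 were left out and the replicate block was kept, a choice made after the data were seen, kcnk6.L and kcnj16.L passed the adjusted threshold of edgeR's test for large against small groups. The log2 fold changes were -0.62 (adjusted p = 0.0239) and -0.70 (adjusted p = 0.0247) over both treatments. In untreated embryos they were -0.82 (adjusted p = 0.0299) and -0.82 (adjusted p = 0.0483). These were 2 of 36 channels in each comparison, where the same fit called 1030 and 1000 of 21731 genes. The share of channels is thus near that of the series.

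Whether group size acted differently with and without thioridazine was tested as an interaction. By edgeR's quasi-likelihood test 0 of 36 channels and 0% of all genes were called. kcnk6.L had an interaction of 0.49 (SE 0.29) on the log2 scale, kcnj15.L of 0.51 (SE 0.33) and kcnma1.L of 0.36 (SE 0.27). The values were -1.68 (SE 0.99) for kcnt1.L, -0.37 (SE 0.32) for kcnab2.L and -0.66 (SE 0.61) for kcnh4.L. kcnt1.L met the minimum only with its untreated large libraries, so its negative value was partly built into the selection. For these 6 genes each of the 3 replicate numbers gave the same sign. They were named for their small p in the same libraries, so like signs were largely built in. Other channels, kcna4.S and kcnk6.S among them, had like signs too. These comparisons share libraries with those above, so their values are not independent of them.

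The replicate number was the factor along which channel genes differed. With group as a covariate, edgeR's quasi-likelihood test called 13 of 36 channels (36.1%), against 39.7% of all genes, so the share of channels is near that of the series. In 10 of the 36 channels (27.8%) a called gene was highest in the libraries numbered 1, against 20.3% of all genes, and in 2 (5.56%) it was lowest there, against 16.3%. The 4 libraries numbered 1 lay above all 8 others for 8 of 36 channels (22.2%), against 12.6% of all genes, and below all others for 0 of 36, against 8.19%. These counts partly restate the minimum, since 4 of the 10, kcnq3.L, kcnq3.S, kcnj3.S and kcnh5.L, would not have reached it without the libraries numbered 1. Of the 28 channels that reached the minimum without those libraries, 6 (21.4%) were called with number 1 highest and 5 (17.9%) lay above all others there, against 18% and 10.8% of the 20552 such genes. All these counts are descriptions.

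kcna4.S, for Kv1.4, was at 36.3, 45.4, 58.8 and 40.3 CPM in the 4 libraries numbered 1, 22.8, 21.7, 17.9 and 16.8 CPM in those numbered 2 and 10.9, 25.3, 13.3 and 16.1 CPM in those numbered 3. All libraries numbered 1 were above all others, in every treatment and group size. The log2 difference was -1.20 (SE 0.20) between numbers 2 and 1 and -1.46 (SE 0.21) between numbers 3 and 1, with an adjusted p of 1.32e-04 by edgeR's test. kcnj2.S, for Kir2.1, was at 37.5, 53.4, 44.4 and 50.2 CPM in the libraries numbered 1, 27.7, 22.3, 14.0 and 12.5 in those numbered 2 and 22.9, 22.8, 24.5 and 20.0 in those numbered 3. The libraries of kcnj2.S numbered 1 were again above the rest, with an adjusted p of 2.88e-04 by edgeR's test. kcnj16.S, the neighbor of kcnj2.S in the RefSeq order of genes, had its lowest level at number 1 and did not pass (adjusted p = 0.0949 by edgeR's test).

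Further channels were highest in the libraries numbered 1. kcnj13.S, for Kir7.1, a weak rectifier of epithelia, fell by 0.82 (SE 0.17) from number 1 to number 2 and by 0.88 (SE 0.18) to number 3 on the log2 scale. kcnk5.S, for the two-pore channel TASK-2, fell by 1.29 (SE 0.32) and 1.36 (SE 0.34), and kcnk1.L by 1.58 (SE 0.36) and 1.08 (SE 0.37). kcnq3.S, for a Kv7 channel of the neuronal M current, fell by 2.04 (SE 0.46) and 1.75 (SE 0.49). kcnq3.L had 18, 21.4, 18.3 and 6 expected counts in the libraries numbered 1, against at most 3 in any other library. kcnj3.S, for a rectifier opened by G proteins, had 15.7, 23, 15 and 12.8 in the libraries numbered 1, against at most 6 elsewhere. Both genes passed the minimum through these libraries alone, so a difference by number was built into their selection. kcnj13.S lies within gigyf2.S, and kcnj3.S overlaps an unnamed gene in the RefSeq annotation. Whether counting used strand is not stated.

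A few channels had another order. kcnj16.L and kcnk6.S were lowest in the libraries numbered 1 and 0.71 (SE 0.18) and 0.72 (SE 0.19) higher at number 3 on the log2 scale, with adjusted p of 0.0179 and 0.0205 by edgeR's test. kcnh3.L, an ether-a-go-go-like channel, was highest at number 3, by 0.97 (SE 0.35) over number 1 and 1.21 (SE 0.36) over number 2, and would not have reached the minimum without the libraries numbered 3. kcnh5.L and kcnh5.S were lowest at number 2, where they lay 1.87 (SE 0.39) and 1.11 (SE 0.33) below number 1. kcnk6.L, the homeolog of kcnk6.S, did not pass by number (adjusted p = 0.883 by edgeR's test), and neither did kcnj15.L, kcnq1.L or kcnab2.L, the channel genes with the most reads.

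**Figure D5:**
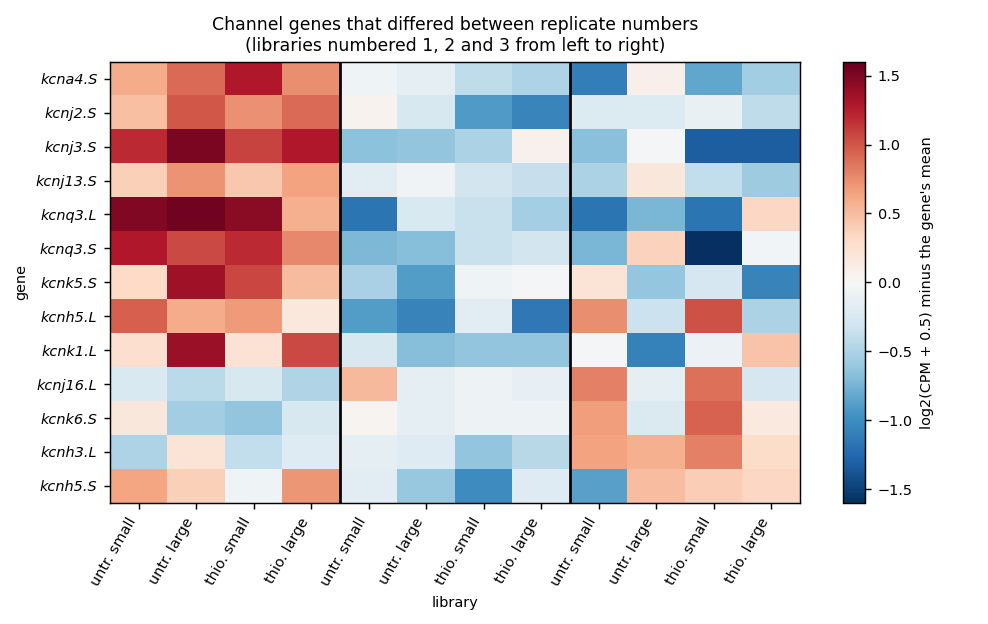
The 13 channel genes called between replicate numbers. Color gives log2(CPM + 0.5) minus the mean of the gene over 12 libraries, and columns are libraries ordered by replicate number, then group, with black lines between numbers. The first 9 genes, from kcna4.S to kcnk1.L, are red in the libraries numbered 1, while kcnj16.L and kcnk6.S are reddest in untreated small 3 and thioridazine small 3.

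Tissue markers moved with the replicate number as well. The summed level of 20 rows for skeletal muscle markers was 5835 to 7649 CPM in the libraries numbered 1, 4373 to 4972 CPM at number 2 and 3542 to 4775 CPM at number 3, and of the 19 rows tested 11 were called with number 1 highest and 4 with number 1 lowest. For 17 rows of neuron markers the sums were 637 to 743, 487 to 523 and 506 to 562 CPM, with 8 of 14 rows tested called with number 1 highest and 0 lowest. For 11 rows of multiciliated cell markers they were 192 to 236, 109 to 124 and 112 to 156 CPM, with 4 of 9 rows tested called highest and 1 lowest at number 1. Other markers had the opposite order. The sums of 9 rows for the pronephros were 94.7 to 172, 154 to 202 and 176 to 234 CPM at numbers 1, 2 and 3. Of its 8 rows tested, 1 was called with number 1 highest and 4 lowest. Those of 8 rows for the heart were 46.5 to 68.9, 57.0 to 71.7 and 65.3 to 86.6 CPM, with 0 of 5 rows tested highest and 2 lowest. For neural progenitors the calls were 3 highest and 0 lowest of 11 rows tested, and for ionocytes 2 and 0 of 7. Epidermis had 1 and 1 of 7, and notochord 2 and 2 of 6. Of all genes, 20.3% were called with number 1 highest and 16.3% with it lowest. No row of these lists was at 0. The part of these tissues in the channel values was not tested. The 10 channels called highest at number 1 were not assigned to tissues. Both kcnq3 genes would not have reached the minimum without the libraries numbered 1.

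Other genes that set membrane voltage were read beside the channels, among them ion pumps, sodium and chloride channels and cation-chloride cotransporters. Of the 68 symbols of this list, 31 gave no row here. The others gave 58 rows, many of them as .L and .S copies, and 34 rows were tested. In every comparison of treatment and group size 0 of 34 passed edgeR's adjusted threshold, with a median log2 fold change of 0.01 for thioridazine and -0.03 for large against small groups. slc12a1.L, for the sodium-potassium-chloride cotransporter of the kidney, had the smallest unadjusted p for group size, with a log2 fold change of -0.79 (SE 0.18) and an adjusted p of 1.00 by edgeR's test. It is also the pronephros marker described above, so these are not separate observations. Between replicate numbers 18 of 34 (52.9%) were called, against 39.7% of all genes. Of them 14 (41.2% of 34) had number 1 highest, against 20.3% of all genes, and 4 (11.8%) had number 1 lowest, against 16.3%. These counts partly restate the minimum. Outside the libraries numbered 1, fxyd1.S was at most at 0.714 CPM and scn4b.L at most at 1.77 CPM. Both passed the minimum through the libraries numbered 1 alone. atp12a.S, for a proton-potassium pump, was at 33.8, 50.5, 36.0 and 67.1 CPM in the libraries numbered 1 and at most 2.29 CPM in every other library. Of those others, only untreated small 3 and thioridazine small 3 were over 1.8 CPM. So atp12a.S would not have reached the minimum without the libraries numbered 1. scn3b.L, for an accessory subunit of voltage-gated sodium channels, was at 14.3, 25.6, 18.9 and 32.3 CPM in the libraries numbered 1 and at 4.30 to 11.5 CPM elsewhere, again without overlap.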

How the data were processed

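RNA of 15 pooled embryos per library was depleted of rRNA and sequenced as single reads of 75 nt (12 libraries, 4 groups of 3). The authors used fastp for trimming, Bowtie2 against rRNA, STAR for the genome and RSEM to estimate the expected counts per gene that they deposited. The authors also deposited log2 values, CPM after a filter, TMM and voom, used here for 1 alternative. The paper names a version for the rRNA sequence only. The tools' versions and the build used with STAR were not given in the sources used here. Groups came from the labels.

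After rounding of the expected counts, genes with 1.8 CPM in 3 or more libraries were kept and, with TMM factors, fitted in edgeR 4.0.16 (robust quasi-likelihood, 4 group means over 12 libraries, Benjamini-Hochberg over 21731 genes, threshold 0.05) in R 4.3.3. Levels are CPM with TMM factors. SE was the log2 fold change divided by the square root of F. For treatment and group size it came from the fit without the replicate number. Library totals ran from 3497198 to 7822395, and 3 counts corresponded to 0.377 to 0.909 CPM, counting error only. The code was tested on simulated data.

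Replicate numbers were taken to pair libraries, since deviations from group means correlated at 0.280 or more in all 18 same-numbered pairs and at most at 0.184 in other pairs. No library was a duplicate (lowest chi-square per gene 5.18 within a group). Alternatives were the replicate block, DESeq2 1.42.0, limma 3.58.1 (voom, voom with 2 surrogate variables from sva 3.50.0, trend on the log2 values), RLE size factors, no filter, a filter of 5 CPM, leaving out each library, and leaving out the libraries numbered 1. Added after seeing the data were the block without the libraries numbered 1 and leaving out the 4 shallowest libraries, without and with the block. That leaves untreated small groups with 1 library, assumed to vary like the other groups. Members, lists and rules were chosen with earlier results of these data known. Named were the 3 channels with the smallest p per direction where fewer than 3 passed, all kcnh genes, the 10 with the highest mean CPM, the 10 with the smallest p by replicate number, and the homeolog pairs with extreme shares. kcnk6.S, kcnma1.L, kcne1.L, kcnh3.L and kcnh5.S by number, the channels named because their groups did not overlap, and the other voltage genes were chosen after their values were seen. All 36 channels matched a symbol of RefSeq Xenopus_laevis_v10.1, used for names and neighbors only. Some genes of the marker and voltage lists are not reported here and were left out of their counts and sums. Of the 36 channels, 5 overlap another gene in the RefSeq annotation: kcnj13.S, kcnj3.S, kcnh4.S, kcnh5.L and kcnq5.L.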

Additional observations from a re-analysis of the deposited data

How the results depend on the processing

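The count of channels called stayed at 0 in all 7 comparisons of treatment and group size under DESeq2, the 3 limma fits, RLE size factors, no filter, the 5 CPM filter, without the libraries numbered 1, without the 4 shallowest libraries (also with the block), and with each library left out in turn (lowest 0, highest 0). The replicate block changed no call of a channel: its count was 0 in each of these comparisons. When the libraries numbered 1 were left out under the block, 2 of 36 channels were called for large against small groups and 2 in untreated embryos. That fit called 1030 and 1000 of 21731 genes there. The cause was not tested. Over the whole series, 19 genes were called for thioridazine against 94 with the block, 127 with surrogate variables and 0 without the 4 shallowest libraries. For small groups the counts were 2 and at most 91, and for large groups 2 and at most 79, both with the block and without the 4 shallowest libraries. That fit called 69 genes for the interaction, 29 for group size in untreated embryos and 7 in thioridazine embryos, against 0. Between replicate numbers 13 channels were called, 6 with the 5 CPM filter, which tests 18 channels, 11 to 15 under the other tools and settings, and 9 to 16 with each library left out.

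Of 1086 alternative values for 46 named fold changes, 25 reversed. None of the 46 was called in the main fit. Without the libraries numbered 1, thioridazine against untreated was 0.0027 for kcnh5.L and 0.14 for kcnh5.S (0.18 and 0.17 with the block added), and kcnh5.S was at 0.055 by limma on the log2 values. Each library left out gave -0.55 to 0.23 and -0.22 to 0.28. In small groups, kcnk1.S (0.22) was at -0.17 without the libraries numbered 1, -0.19 with the block added, and -0.038 to 0.55 with each library left out. Without the 4 shallowest libraries, large against small in untreated embryos was -0.058 for kcnj13.S and 0.013 for kcnj16.L, and kcnj16.S in thioridazine embryos was at 0.093 (-0.81 to 0.068 with each library left out). With the block as well, kcnj16.S was at 0.10, kcnab2.L at 0.11 for the interaction and -0.15 for group size in untreated embryos, and kcne5.L and kcnq5.L at 0.095 and -0.0089 for thioridazine in small groups. TMM changed none of 40 channel levels, and leaving out a library moved none of 120 copy shares, by more than the spread between libraries. Depth limits the 8 channels with a library at 0, where 3 counts stand for up to 0.909 CPM.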
